A study of Mus musculus with 20 samples.

Results

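The genes described here are 8 that p53 is known to switch on and whose products drive or relay cell death: the receptor genes Eda2r, Fas and Tnfrsf10b, the BH3-only genes Bbc3 and Pmaip1, the nuclease gene Aen, the membrane protein gene Perp and the adaptor gene Pidd1. They were chosen by name for this shared role and not by a filter on their values, though with earlier results of these data known. All 8 of them were among the 18193 genes measured. RNA of bone marrow cells labelled as VE-cadherin+ endothelial cells was read on 20 Affymetrix arrays. The cells came from C57/Bl6 mice aged 8 to 10 weeks, with no genetic change named in the labels. The 4 groups of 5 arrays were non-irradiated mice, and mice taken 6 hours, 24 hours or 14 days after total body irradiation at 5 Gy. The labels name biological replicates without saying whether a replicate is 1 mouse or a pool, so p-values measure only the spread between these samples.

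Irradiation breaks DNA, and the kinases that sense the breaks stabilize p53, a transcription factor that then induces genes of arrest, repair and death. Its death genes act by different routes. Receptors of the tumour necrosis factor family carry a ligand's signal from outside the cell, in the case of Fas and the TRAIL receptor through the adaptor FADD and caspase-8. The BH3-only proteins PUMA and NOXA, encoded by Bbc3 and Pmaip1, instead neutralize survival proteins of the BCL2 family at the mitochondrion. Bone marrow endothelium lines the sinusoids that hold blood-forming cells, and its injury by irradiation is a known feature of marrow damage.

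Sequence just upstream of the annotated starts was searched for p53 elements, and the windows that bear on the result are shown. A p53 element is built of 2 copies of a 10-base consensus in a row. RefSeq (GRCm38.p6) gave start sites for 5 of the 8 genes, with 8 windows of 250 bases in all, and no entry was used for Tnfrsf10b, Pmaip1 or Perp. A match to the p53 consensus was counted where both copies kept their central C and G with A or T between them and at most 3 of the 20 bases differed. The consensus reads the same on both strands, and such matches can overlap. The first Bbc3 window and the second Aen window held 1 match each, in capitals below, and both matches differ from the consensus at 3 bases. Eda2r is shown because it had the largest rise of the 8 genes, and its window held no match. For Aen the match is printed with 5 bases on either side.
Bbc3, upstream of its first start, chr7:16309333-16309582, plus strand: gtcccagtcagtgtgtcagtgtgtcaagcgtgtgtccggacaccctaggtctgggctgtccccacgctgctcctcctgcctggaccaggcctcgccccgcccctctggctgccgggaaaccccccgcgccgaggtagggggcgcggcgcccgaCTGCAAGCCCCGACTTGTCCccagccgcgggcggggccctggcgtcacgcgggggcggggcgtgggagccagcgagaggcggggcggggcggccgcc
Aen, upstream of its second start, chr7:78895932-78895961, plus strand: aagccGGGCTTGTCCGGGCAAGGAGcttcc
Eda2r, upstream of its start, chrX:97377210-97377459, minus strand: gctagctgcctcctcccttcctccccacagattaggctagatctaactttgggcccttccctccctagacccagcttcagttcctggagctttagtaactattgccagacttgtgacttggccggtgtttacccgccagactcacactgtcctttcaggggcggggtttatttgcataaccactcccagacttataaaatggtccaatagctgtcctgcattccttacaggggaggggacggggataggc
The Bbc3 match lies at bases -97 to -78 counted from the start, with -1 as the base just before it, upstream of the gene. The Aen match lies at -121 to -102 from the second annotated start, which places it downstream of the first. Matches of this kind were present in 156 of 32851 upstream windows of the same length, or 0.475%. The rule for a match was read off the Bbc3 window, so that match was fixed in advance and this share says nothing about it. The windows of Fas and Pidd1, the other 2 of Bbc3 and the first of Aen held none. A single exact copy of the 10-base consensus was present in 7.13% of all windows and, among those of the 8 genes, in the second Aen window. These matches describe letters only, and binding of p53 was not measured.

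Values below are array signals, scaled by the authors to a common mean. Changes are log2 fold changes of signal + 1 with their standard error (SE). Adjusted p-values were computed by limma with Benjamini-Hochberg adjustment over all 18193 genes. A gene is called where its adjusted p lies below 0.05. The background level was read per array from 27 bacterial control probe sets, as their 95th percentile, and lay between 17.5 and 51.5. The median signal of an array was 177 ± 10.1 (mean ± SD, n = 5) in non-irradiated samples, 149 ± 9.23 at 6 hours, 135 ± 5.18 at 24 hours and 94.5 ± 8.38 at day 14. Pairs of arrays differed by a median of 0.611 to 0.676 on the log2 scale at 6 hours and by 0.285 to 0.419 in the other groups. The fit pools the spread over the groups, so standard errors at 6 hours may be too small. Array controls also moved with the groups. The log2 difference between the 3′ and 5′ probe sets of Gapdh, a measure of RNA integrity and of amplification, was 1.33 ± 0.04 (mean ± SD, n = 5), 1.58 ± 0.29, 0.77 ± 0.06 and 0.89 ± 0.12 in the 4 groups in turn. It reached 2.03 on 1 array at 6 hours. The mean log2 signal of the hybridization controls was 12.8 ± 0.08, 12.8 ± 0.16, 12.2 ± 0.16 and 12.1 ± 0.16. The part of these differences in the changes given here was not tested.

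Most of these death genes were higher in the first day after irradiation, and on day 14 only Fas still differed from non-irradiated samples past the threshold, downwards. The Gapdh difference and the hybridization controls were lower at 24 hours and on day 14 than in the other groups. At 6 hours Eda2r, Fas, Tnfrsf10b, Pmaip1 and Aen rose and 0 fell, and in these 5 genes the 2 groups of arrays did not overlap. Of all genes 27.4% were called at 6 hours, 12.9% as higher, while 7.59% had all 5 arrays above all 5 and 8.05% all below. At 24 hours Eda2r, Tnfrsf10b, Pmaip1, Aen and Perp rose and Pidd1 fell, where 29.5% of all genes were called, 15.7% as higher and 13.8% as lower. Arrays of 4 members lay wholly above and those of Pidd1 wholly below, beside 15.1% and 12.9% of all genes. On day 14 Fas fell and no other member passed, where 22.4% of all genes were called, 9.47% as higher and 13% as lower. The arrays of Aen lay wholly above and those of Fas wholly below, beside 11.4% and 11.6% of all genes. With quantile normalization the day 14 counts turned to 1 higher (Eda2r) and 0 lower. With arrays centred on their medians they turned to 3 higher (Eda2r, Aen and Pidd1) and 0 lower. Centring moved the median of all genes to 0.23, 0.31 and 0.72 at the 3 times. Counts after centring, here and below, carry that shift, and on day 14 most of all genes called after centring were higher. On the deposited scale the median change of the 8 genes was 1.49, 1.09 and -0.36 at the 3 times in turn, beside medians of -0.02, -0.07 and -0.18 over all genes. In the F test over the 4 groups all 8 genes passed, as did 55.1% of all genes. The 3 comparisons share the non-irradiated arrays.

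**Figure D1:**
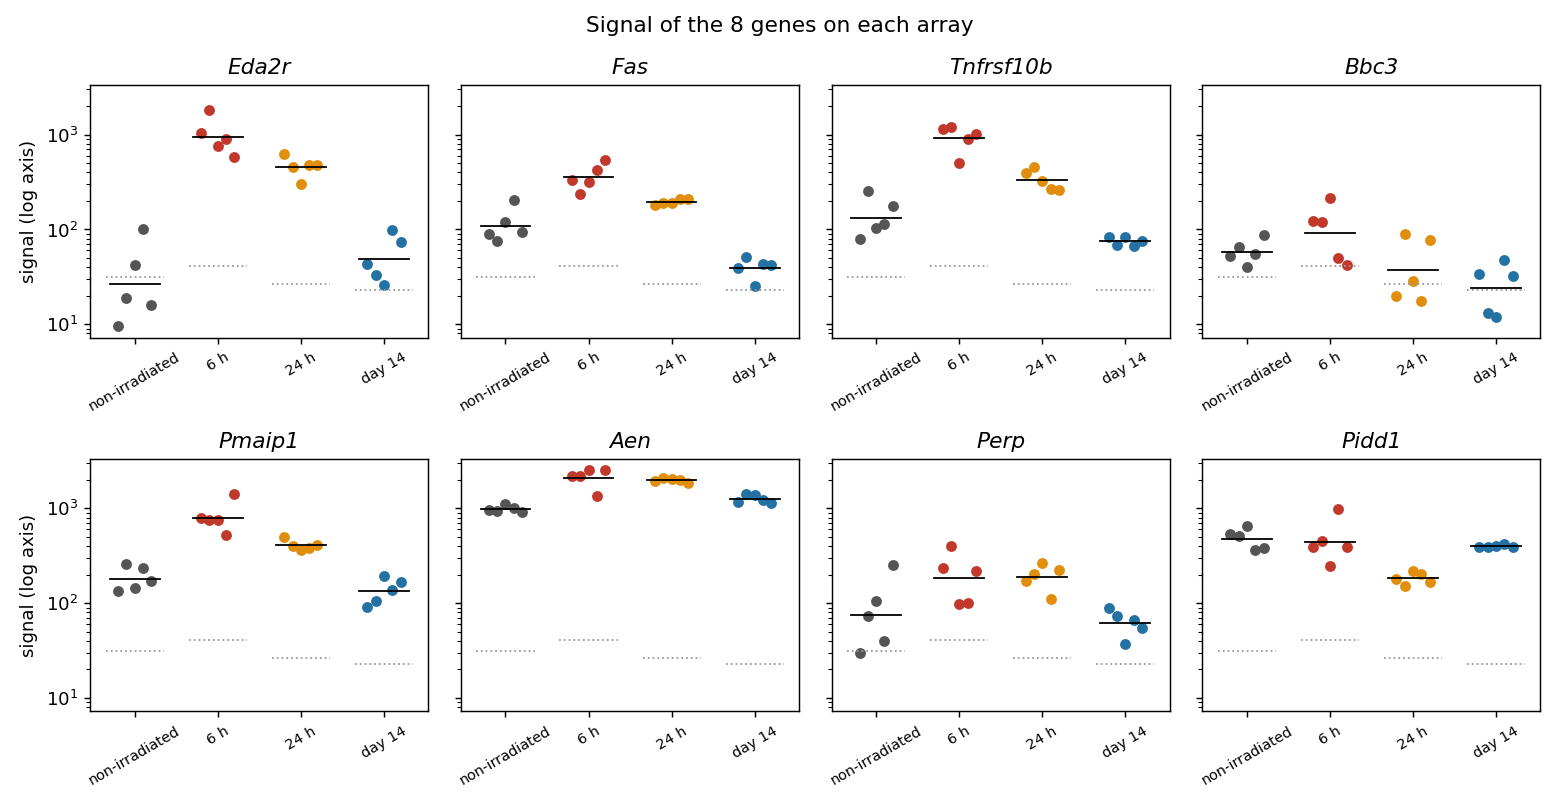
Signal of each of the 8 genes (log axis) on each of the 20 arrays, by group: points are arrays, the black line is the geometric mean of 5 arrays and the dotted line the mean background level. Eda2r, Tnfrsf10b and Pmaip1 sit highest at 6 hours, Pidd1 sits lowest at 24 hours, and Bbc3 lies nearest to background.

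Eda2r encodes a receptor for an isoform of ectodysplasin and has no death domain of its own. It showed the largest rise of the 8 genes. Its signal on non-irradiated replicates 1 to 5 was 9.58, 18.8, 42.3, 101 and 16.04, and 2 of these arrays lay above their background level. At 6 hours the 5 arrays read 1035, 1818, 754, 905 and 582, and at 24 hours 621, 453, 302, 480.2 and 480.4. All 10 arrays of these times stood above all non-irradiated ones, by a wide margin. On day 14 the values were 43.2, 33.4, 26.0, 99.6 and 73.2, inside the non-irradiated range. The change was 5.10 ± 0.48 at 6 hours (adjusted p = 6.98e-09) and 4.05 ± 0.48 at 24 hours (adjusted p = 2.63e-07). These sizes are not exact because 3 non-irradiated arrays read at or under background. On day 14 the change was 0.86 ± 0.48 and did not pass (adjusted p = 0.209). It passed at 1.33 without non-irradiated replicate 4, the array that read 101, and at 1.90 with quantile normalization and 1.75 with arrays centred on their medians. From 24 hours to day 14 Eda2r fell by 3.20 ± 0.48 on the log2 scale (adjusted p = 6.75e-06), while the difference between 24 and 6 hours, -1.05 ± 0.48, did not pass (adjusted p = 0.121).

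Fas is the receptor of Fas ligand and assembles a death-inducing complex through FADD. Its non-irradiated arrays read 88.8, 76.2, 120.4, 203 and 93.3, and its 6-hour arrays 335, 236, 314, 424 and 539.7. At 24 hours the signals were 182, 189.8, 189.9, 210.0 and 211, and on day 14 they were 39.5, 51.1, 25.0, 43.7 and 42.7. Only non-irradiated replicate 4 reached into the 24-hour range, and all day 14 arrays lay below all arrays of the other groups. Fas rose by 1.69 ± 0.32 at 6 hours (adjusted p = 0.000207). Its 24-hour change of 0.84 ± 0.32 fell just short (adjusted p = 0.052). That change passed with quantile normalization (1.30), with arrays centred on their medians (1.22), with 16 added (0.75), with array weights (0.83), and at 0.84 with dim genes left out, the mean of probe sets, no intensity trend or only the 2 groups compared. It also passed at 1.06 without non-irradiated replicate 4 and at 0.84 without 6-hour replicate 2, 6-hour replicate 5 or day 14 replicate 3. On day 14 Fas was lower than without irradiation, at -1.45 ± 0.32 (adjusted p = 0.00214). That fall did not pass with quantile normalization (-0.40) or with arrays centred on their medians (-0.55), so its size depends on how day 14 arrays are scaled. From 24 hours to day 14 Fas fell by 2.29 ± 0.32 (adjusted p = 2.57e-06). Its difference between 24 and 6 hours, -0.86 ± 0.32, missed the threshold (adjusted p = 0.0562), although all 24-hour arrays lay below all 6-hour arrays. It passed at -0.86 with dim genes left out, the mean of probe sets or no intensity trend, at -0.81 with 16 added, at -0.86 without non-irradiated replicate 4 or day 14 replicate 3 and at -1.003 without 6-hour replicate 2.

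Tnfrsf10b encodes the mouse TRAIL receptor, a death-domain receptor that also works through FADD. Its non-irradiated arrays read 79.8, 253, 105, 113 and 177, and its 6-hour arrays 1138, 1214, 506, 898 and 1019. At 24 hours the signals were 397, 460.3, 325, 267 and 262, and on day 14 they were 83.7, 68.8, 83.9, 66.2 and 76.5. The 6-hour, 24-hour and non-irradiated arrays formed 3 ranges that did not overlap, and the day 14 range overlapped the non-irradiated one only at non-irradiated replicate 1. The change was 2.77 ± 0.31 at 6 hours (adjusted p = 9.75e-08) and 1.32 ± 0.31 at 24 hours (adjusted p = 0.00153). The drop from 6 to 24 hours was itself called, at -1.45 ± 0.31 (adjusted p = 0.000888), as was the drop from 24 hours to day 14, at -2.13 ± 0.31 (adjusted p = 3.27e-06). Against non-irradiated samples day 14 read -0.82 ± 0.31 (adjusted p = 0.0562), and this fall was not seen with quantile normalization (0.14, adjusted p = 0.818) or after centring each array (0.08, adjusted p = 0.855). On the deposited scale it passed at -1.29 with the mean of probe sets, at -0.83 with array weights, at -0.82 with dim genes left out or no intensity trend, at -0.9991 without non-irradiated replicate 1 and at -0.82 without 6-hour replicate 3. The gene's dimmer probe set, of a kind open to cross-hybridization, gave smaller rises and a larger fall. It read 1.51 ± 0.33 at 6 hours (adjusted p = 0.00122 over all probe sets), 0.33 ± 0.33 at 24 hours (adjusted p = 0.501) and -1.76 ± 0.33 on day 14 (adjusted p = 0.000252). The call at 24 hours thus rests on the brighter probe set.

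Of the 3 ligands of these receptors, 1 rose at 6 hours, and 1 rose and 1 fell at 24 hours, where 27.4% and 29.5% of all genes were called. Tnfsf10, which encodes TRAIL, had a signal of 193 ± 72.2 (mean ± SD, n = 5) without irradiation, 471 ± 149 at 6 hours, 391 ± 136 at 24 hours and 120.5 ± 44.9 on day 14. It rose by 1.33 ± 0.33 at 6 hours (adjusted p = 0.00307) and by 1.06 ± 0.33 at 24 hours (adjusted p = 0.0161), with no overlap of either time with the non-irradiated arrays. Fasl, the ligand of Fas, was dim throughout, at 51.2 ± 21.2, 41.9 ± 13.3, 15.2 ± 9.30 and 17.6 ± 5.78 in the same order. At 24 hours all 5 arrays lay at or under background, so the fall there is given as at least 1.79-fold (adjusted p = 0.00691). Its day 14 change was -1.46 ± 0.53 (adjusted p = 0.0479), with 1 array of 5 above background, and it did not pass with quantile normalization (-0.46) or centred arrays (-0.56). Eda, which encodes the ectodysplasins, stood at 136 ± 15.9, 95.2 ± 74.1, 319.6 ± 100.5 and 121 ± 35.9. Its change of 1.18 ± 0.57 at 24 hours did not pass (adjusted p = 0.127), and passed at 1.60 with quantile normalization and 1.56 with centred arrays.

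Bbc3, the gene of PUMA, was dim and its arrays scattered. The non-irradiated arrays read 52.2, 64.8, 40.1, 55.7 and 88.1, and the 6-hour arrays 122, 121, 214, 49.9 and 41.9. At 24 hours they read 19.9, 88.6, 28.5, 17.7 and 77.1, and on day 14 they read 34.3, 13.1, 11.95, 47.3 and 32.4. Of the 5 arrays of a group, 5, 4, 3 and 2 lay above background in that order. At 6 hours 3 arrays stood above all non-irradiated arrays and 2 within their lower part, so the groups overlapped. The change was 0.65 ± 0.55 at 6 hours (adjusted p = 0.433), with a 95% interval from -0.47 to 1.78, and -0.63 ± 0.55 at 24 hours (adjusted p = 0.429). On day 14 it was -1.23 ± 0.55 (adjusted p = 0.11). The level differed between day 14 and 6 hours (-1.88 ± 0.55, adjusted p = 0.00689), but not past the threshold with quantile normalization (-1.16) or centred arrays (-1.23). The difference between 24 and 6 hours, -1.29 ± 0.55, missed the threshold (adjusted p = 0.0919). It passed at -1.57 without 6-hour replicate 5 and at -1.595 without 24-hour replicate 2.

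Pmaip1, the gene of NOXA, followed the course of Tnfrsf10b. Its non-irradiated arrays read 136, 257, 143, 233 and 171, and its 6-hour arrays 784, 746, 752, 527 and 1411. At 24 hours the signals were 498, 397, 365, 387 and 407, and on day 14 they were 91.8, 105, 193, 137 and 168. The first 3 groups did not overlap, and the day 14 arrays spread over the lower part of the non-irradiated range and below it. Pmaip1 rose by 2.13 ± 0.27 at 6 hours (adjusted p = 1.05e-06) and by 1.16 ± 0.27 at 24 hours (adjusted p = 0.00175). It fell by 0.97 ± 0.27 from 6 to 24 hours (adjusted p = 0.0108) and by 1.60 ± 0.27 from 24 hours to day 14 (adjusted p = 3.63e-05). Day 14 against non-irradiated samples gave -0.44 ± 0.27 (adjusted p = 0.26), with a 95% interval from -1.004 to 0.13. Across the 20 arrays Pmaip1 and Tnfrsf10b had the highest correlation of any pair of the 8 genes, with r = 0.933. Within groups the same pair gave r = 0.357. The arrays of a group share their condition, so the first value mostly describes the 4 group levels.

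Aen encodes an exonuclease that p53 induces and that takes part in DNA fragmentation. Non-irradiated arrays read 952, 929, 1114, 999 and 912, and 6-hour arrays 2222, 2220.4, 2523, 1340.4 and 2530.3. The signals were 1943, 2078, 2052, 1984 and 1861 at 24 hours and 1159, 1407, 1373, 1232 and 1128 on day 14. No irradiated array reached down into the non-irradiated range, and 6-hour replicate 4 lay below the other 6-hour arrays and within the day 14 range. The change was 1.11 ± 0.14 at 6 hours (adjusted p = 1.13e-06) and 1.02 ± 0.14 at 24 hours (adjusted p = 3.42e-06), and these 2 times differed by -0.09 ± 0.14 (adjusted p = 0.69). On day 14 the change was 0.36 ± 0.14 and missed the threshold (adjusted p = 0.0735). It passed at 0.36 with array weights, with only the 2 groups compared or without 6-hour replicate 4, and at 1.26 with arrays centred on their medians. Aen fell by 0.66 ± 0.14 from 24 hours to day 14 (adjusted p = 0.000602), a fall that read -0.14 and did not pass with centred arrays. Of its 3 other probe sets, the second brightest on average gave larger changes of 2.05, 1.72 and 0.81 at the 3 times, called each time. The other 2 gave 0.95 and -0.06 at 6 hours, -0.04 and -0.13 at 24 hours and -0.09 and -0.68 on day 14, with no call.

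Perp encodes a membrane protein of desmosomes that p53 induces during apoptosis. Its non-irradiated arrays were uneven, at 29.96, 72.8, 105, 39.6 and 253. The 6-hour arrays read 238, 397, 98.0, 101 and 217, the 24-hour arrays 172, 203, 265, 112 and 221, and the day 14 arrays 89.5, 72.6, 37.5, 65.9 and 54.2. Each of the 3 irradiated groups overlapped the non-irradiated one, in which replicate 5 stood higher than all day 14 arrays and all but 1 array of each other time. The change at 24 hours, 1.31 ± 0.49, was called (adjusted p = 0.0437), and that at 6 hours, 1.28 ± 0.49, was not (adjusted p = 0.0527). The pair is of the same size, and the times differed by 0.03 ± 0.49 (adjusted p = 0.972). The 24-hour call did not hold with no intensity trend (1.31), without non-irradiated replicate 1 (0.99), 2 (1.30) or 4 (1.09), without 24-hour replicate 1 (1.34), 2 (1.28), 3 (1.19) or 5 (1.25), or without day 14 replicate 2 or 4 (1.31 each). The 6-hour change passed with quantile normalization (1.61), with arrays centred on their medians (1.53) and with the mean of probe sets (1.28). It also passed without non-irradiated replicate 5 (1.71), 6-hour replicate 3 (1.501) or 6-hour replicate 4 (1.49). From 24 hours to day 14 Perp fell by 1.59 ± 0.49 (adjusted p = 0.0111), with all day 14 arrays below all 24-hour arrays. That fall did not pass with quantile normalization (-1.02) or centred arrays (-1.08).

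Pidd1 encodes the scaffold of the PIDDosome, which joins the adaptor RAIDD (Cradd) and caspase-2. It is the only one of the 8 genes called lower at 24 hours. Its non-irradiated arrays read 531, 513, 648, 361 and 379, and its 6-hour arrays 395, 450.3, 244, 997 and 390.2. The signals were 179, 153, 218, 205 and 167 at 24 hours and 387, 394, 401, 419.6 and 394 on day 14. All 24-hour arrays lay below all arrays of every other group, whereas the 6-hour arrays spread widely around the non-irradiated ones. The change was -0.10 ± 0.27 at 6 hours (adjusted p = 0.834), -1.37 ± 0.27 at 24 hours (adjusted p = 0.000295) and -0.25 ± 0.27 on day 14 (adjusted p = 0.543). The level at 24 hours was lower than at 6 hours, at -1.27 ± 0.27 (adjusted p = 0.00107). It rose again by 1.12 ± 0.27 from 24 hours to day 14 (adjusted p = 0.00177). On day 14 the change against non-irradiated samples turned to 0.65 and passed with arrays centred on their medians. That value lay below the median of all genes after centring, 0.72.

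**Figure D2:**
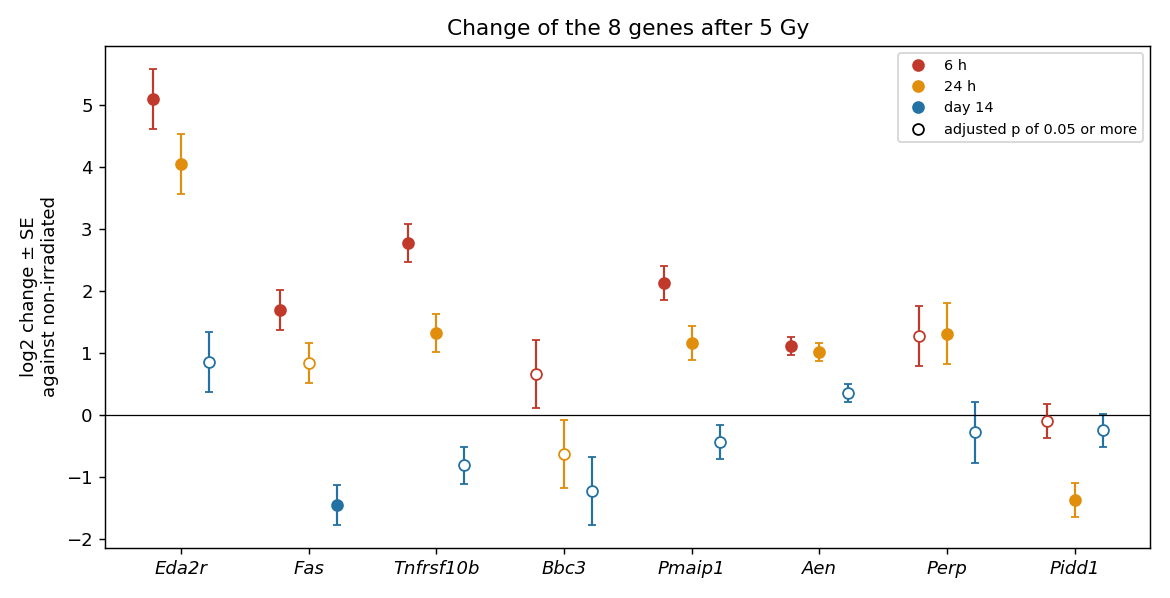
Log2 change ± SE of the 8 genes against non-irradiated samples at 6 hours, 24 hours and day 14, with open points where the adjusted p is 0.05 or more. Eda2r has the largest rise (5.10 and 4.05), Pidd1 the lowest value at 24 hours (-1.37), and Fas the lowest on day 14 (-1.45).

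The times were also compared with each other. From 6 to 24 hours Tnfrsf10b, Pmaip1 and Pidd1 fell and 0 of the 8 rose, where 10.1% of all genes were called lower and 13.7% higher. The arrays of 4 members lay wholly below and those of 0 wholly above, beside 6.61% and 7.99% of all genes. From 24 hours to day 14 all but Bbc3 changed, 6 downwards and Pidd1 upwards, where 21.7% of all genes were called lower and 15.2% higher. The same 7 did not overlap between the groups, beside 20.6% of all genes wholly below and 15.7% wholly above. From 6 hours to day 14 all but Pidd1 fell, where 25% of all genes were called lower and 19.8% higher. Arrays of 5 members lay wholly below and of 0 wholly above, beside 15.1% and 13.1% of all genes. The median changes were -1.01, -1.60 and -2.22, beside -0.05, -0.27 and -0.27 over all genes. With arrays centred on their medians 4 genes in place of 7 fell from 6 hours to day 14.

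The other receptors, adaptors and caspases of these routes are described from lists chosen by role. Of 7 other receptors with a death domain or decoy function 2 rose and 1 fell at 6 hours, 2 rose and 0 fell at 24 hours and 0 rose and 1 fell on day 14. Their median changes were 0.36, 0.53 and -0.30. The shares of all genes called at these times were 27.4%, 29.5% and 22.4%. The decoy TRAIL receptor gene Tnfrsf22 went from 529 ± 182 to 1161 ± 395 at 6 hours (1.15 ± 0.25, adjusted p = 0.000735) and stood at 974 ± 60.6 at 24 hours (0.96 ± 0.25). Tnfrsf1a, the main receptor of tumour necrosis factor, rose by 0.36 ± 0.12 at 6 hours and by 1.17 ± 0.12 at 24 hours (adjusted p = 1.21e-08). Tnfrsf21 fell by 0.59 ± 0.18 at 6 hours, and Ngfr, the low-affinity neurotrophin receptor, fell by 1.12 ± 0.40 on day 14. Neither fall passed with arrays centred on their medians, and Ngfr also did not pass with quantile normalization. With centred arrays the day 14 counts of these receptors turned to 3 higher and 0 lower, at a median of 0.60 beside 0.72 over all genes.

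Of 8 measured adaptors and initiator caspases 2 rose at 6 hours, 1 at 24 hours and 1 on day 14, and 0, 0 and 1 fell. Of all genes 27.4%, 29.5% and 22.4% were called at these times, so the share called in this list lay near or below that of all genes. Casp8, the initiator caspase of Fas and TRAIL receptors, read 1652 ± 146 without irradiation and 3076 ± 1189 at 6 hours (0.80 ± 0.19, adjusted p = 0.00173), with overlapping arrays. Cflar, which encodes the caspase-8 inhibitor FLIP, rose by 0.58 ± 0.14 in the same arrays. Of the partners of Pidd1, Cradd rose by 1.03 ± 0.39 at 24 hours (adjusted p = 0.0492) and Casp2 by 1.00 ± 0.34 on day 14 (adjusted p = 0.0349). Edaradd, the adaptor of the ectodysplasin receptor EDAR, fell by 1.37 ± 0.36 on day 14 (adjusted p = 0.00813), but not past the threshold with quantile normalization or centred arrays (-0.47 in both). With centred arrays this list had 4 higher and 0 lower at 24 hours and 7 higher and 0 lower on day 14. Its medians there were 0.54 and 1.125, beside 0.31 and 0.72 over all genes. Ripk1 and Traf3 were not analysed here.

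The BCL2 family, on which PUMA and NOXA act, changed in both directions. Of 12 measured members 5 rose and 2 fell at 6 hours, 4 rose and 2 fell at 24 hours, and 1 rose and 3 fell on day 14, at median changes of 0.47, 0.28 and -0.32. Beside these counts, 27.4%, 29.5% and 22.4% of all genes were called. Bcl2l1, the gene of the survival protein BCL-XL, rose from 425 ± 112 to 1461 ± 616 at 6 hours (1.71 ± 0.25, adjusted p = 7.82e-06) and was 789 ± 170.1 at 24 hours (0.90 ± 0.25). Bmf, another BH3-only gene, rose by 1.16 ± 0.21 at 6 hours and fell by 1.02 ± 0.21 on day 14. Bok, a relative of the pore-forming BAX and BAK, rose by 0.87 ± 0.22 at 6 hours. Bcl2l11, the gene of the BH3-only protein BIM, fell from 4549.6 ± 259 to 2282 ± 434 at 24 hours (-1.01 ± 0.15, adjusted p = 8.1e-06), when the survival gene Bcl2l2 rose by 0.79 ± 0.20. On day 14 Bcl2 fell by 0.95 ± 0.15 and the pore-forming gene Bak1 rose by 0.91 ± 0.13 (adjusted p = 9.94e-06). With arrays centred on their medians the counts were 7 and 0, 7 and 1, and 7 and 0, so the falls of Bmf and Bcl2 on day 14 did not pass there, and Bcl2l11 turned to 0.53 on day 14. The medians of the list were then 0.72, 0.66 and 0.58, beside 0.23, 0.31 and 0.72 over all genes. Bax, Bcl2a1b and Bcl2a1d were not analysed here.

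Downstream of the mitochondrion, 8 genes of the apoptosome, effector caspases and their inhibitors were measured. At 6 hours 4 rose and 2 fell, at 24 hours 1 rose, and on day 14 2 rose, with 0 falls at the later times. Over all genes 27.4%, 29.5% and 22.4% were called, so at 24 hours and on day 14 the share in this list was near or below that. With arrays centred on their medians the counts were 4 higher at 6 hours, 4 at 24 hours and 7 on day 14, with 0 lower at each time. The medians of the list were then 0.49, 0.41 and 1.22, beside 0.23, 0.31 and 0.72 over all genes. The inhibitor genes Birc3 (1.45 ± 0.18, adjusted p = 6.2e-07) and Xiap (1.04 ± 0.15) rose most at 6 hours. Apaf1, the core of the apoptosome and itself a p53 target, rose by 0.92 ± 0.20 at 6 hours and by 0.63 ± 0.20 at 24 hours. Casp6 fell by 0.94 ± 0.34 at 6 hours, but not past the threshold with quantile normalization (-0.85) or centred arrays (-0.69). Diablo and Cycs, whose products leave the mitochondrion in apoptosis, rose by 0.59 ± 0.14 and 0.46 ± 0.10 on day 14.

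**Figure D3:**
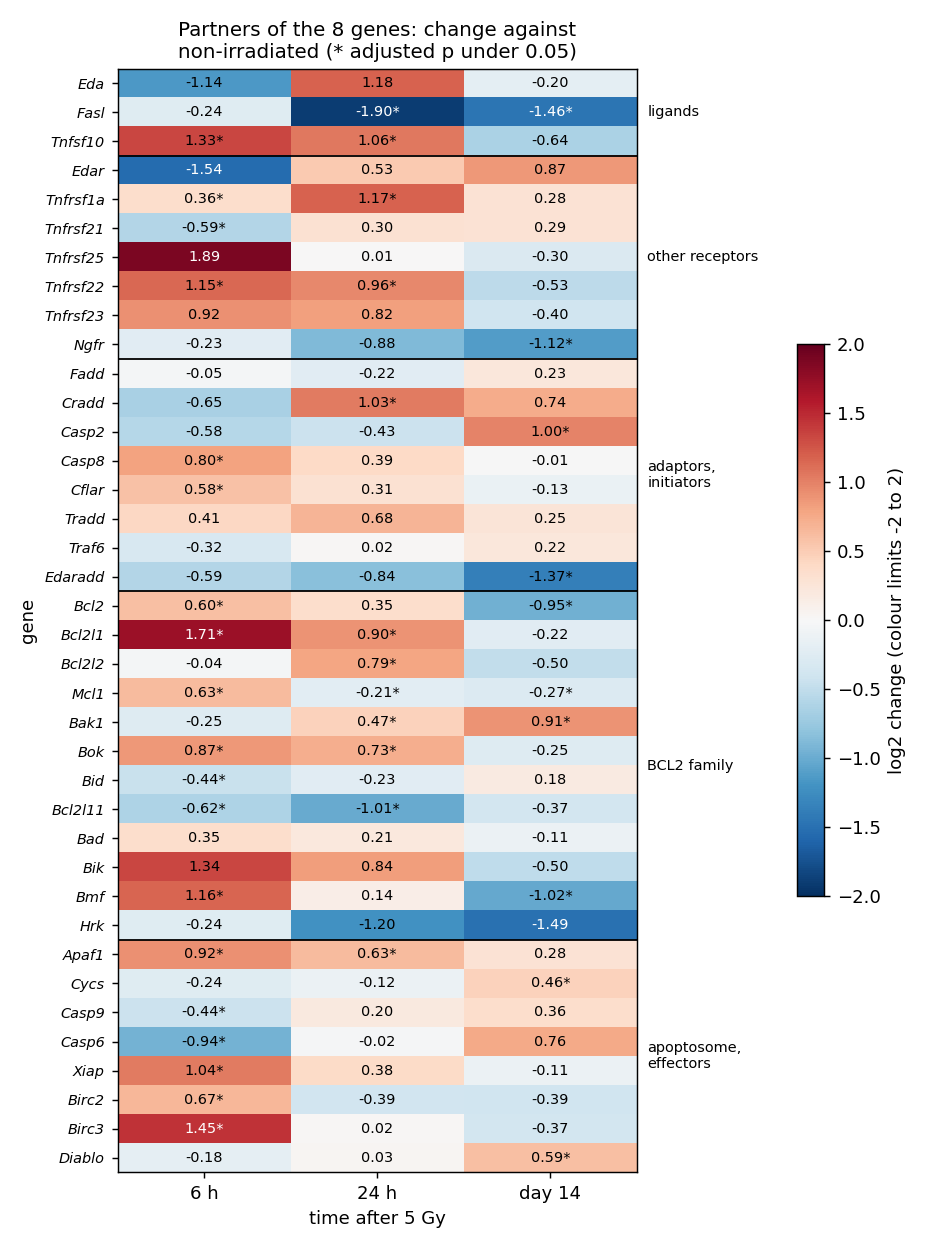
Log2 change against non-irradiated samples of ligands, other receptors, adaptors, BCL2 family and apoptosome genes at 6 hours, 24 hours and day 14, with the value in each cell, * where the adjusted p is below 0.05, and colours limited at -2 and 2. Tnfsf10, Tnfrsf22, Bcl2l1 and Birc3 are among the called rises at 6 hours (1.33, 1.15, 1.71 and 1.45), and Fasl and Bcl2l11 among the called falls at 24 hours.

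Other p53 targets give the setting. Of 37 measured, 22 rose and 3 fell at 6 hours, 17 rose and 4 fell at 24 hours and 8 rose and 6 fell on day 14. Their median changes were 0.75, 0.51 and 0.14. The shares of all genes called were 12.9% higher and 14.5% lower at 6 hours and 15.7% and 13.8% at 24 hours. On day 14 they were 9.47% and 13%. Cdkn1a, the p53-induced arrest gene, had a signal of 943 ± 66.8, 5968 ± 416, 5017 ± 456 and 1141 ± 66.0 in the 4 groups in turn, with changes of 2.66, 2.41 and 0.28, each called, the last not with quantile normalization (0.22). The largest called changes were those of Dcxr (3.58 ± 0.23), Zmat3 (3.17 ± 0.30) and Phlda3 (3.00 ± 0.15) at 6 hours, and Ak1 (2.93 ± 0.16), Phlda3 (2.91 ± 0.15) and Dcxr (2.67 ± 0.23) at 24 hours. On day 14 they were Cd80 (-2.02 ± 0.40), Plk3 (-1.97 ± 0.25) and Phlda3 (1.16 ± 0.15), and Cd80 did not pass with quantile normalization. Eda2r thus changed by more than any of these 37 at 6 and 24 hours, as a size of the fitted value and without a test of the difference. With arrays centred on their medians 27 of the list rose and 2 fell on day 14, at a median of 1.04 beside 0.72 over all genes.

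Among 10 measured genes of p53 control 1 rose and 5 fell at 6 hours, 1 rose and 6 fell at 24 hours, and 1 rose and 1 fell on day 14. The shares of all genes called in either direction were 27.4%, 29.5% and 22.4%. Mdm2, the ligase that degrades p53 and is induced by it, rose by 1.00 ± 0.12 at 6 hours (adjusted p = 2.88e-07) and by 0.45 ± 0.12 at 24 hours. The checkpoint kinase genes fell, Chek1 by 1.61 ± 0.23 and 2.50 ± 0.23 and Chek2 by 1.69 ± 0.42 and 1.32 ± 0.42 at these times, the last not past the threshold with centred arrays (-0.94). The deubiquitinase gene Usp7 fell by 0.83 ± 0.12 at 24 hours. Mdm4, a p53 inhibitor, fell by 1.19 ± 0.12 on day 14, not past the threshold with centred arrays (-0.29), and the phosphatase gene Ppm1d rose by 0.65 ± 0.22, not past it with quantile normalization (0.43). Centred arrays gave 2 and 2, 1 and 2, and 6 and 0 in place of these counts. The medians of the list were then -0.32, -0.17 and 0.78, beside 0.23, 0.31 and 0.72 over all genes. Trp53 itself was not analysed here.

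Markers of endothelial and of other marrow cells moved with the groups. In bulk samples fewer cells of a type and less RNA per cell cannot be told apart. The summed signal of 15 pan-endothelial markers ranged from 17321 to 18835 over the non-irradiated arrays, from 44493 to 51141 at 6 hours, from 25531 to 26877 at 24 hours and from 9459 to 10272 on day 14. Of these markers 14, 7 and 1 rose and 0, 0 and 10 fell at the 3 times, and none lay at background on all arrays of a group. Over all genes 12.9%, 15.7% and 9.47% were called higher and 14.5%, 13.8% and 13% lower at these times. The day 14 count of the endothelial markers depends on the scaling. It was 1 higher and 9 lower with quantile normalization, and 5 and 5 with arrays centred on their medians, where the median change was 0.10 in place of -0.80. With that centring the median of all genes was 0.72 in place of -0.18, above the markers' median in both cases. Centring gave 12 higher and 0 lower at 24 hours. Cdh5, the gene of VE-cadherin, had a signal of 3186 ± 494, 8954 ± 1263, 4891 ± 188 and 1293 ± 270.1, and Pecam1 changed by 1.42, 0.39 and -1.60. The summed signal of 10 erythroid markers went from 45801 to 49665 without irradiation, 5353 to 9520.1 at 6 hours, 2163 to 2887 at 24 hours and 56327 to 70177 on day 14. Of these 0 rose and 9 fell at both early times, beside 14.5% and 13.8% of all genes called lower. At 24 hours 2 of the 10 lay at background on all arrays. The erythroid genes Klf1 (5693 ± 288) and Epor (2378 ± 429) and the leukocyte gene Ptprc (4785 ± 417) were well above background in the non-irradiated samples, so markers of other cells were measured beside the endothelial ones.

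Megakaryocyte markers moved in the same direction as the endothelial ones, with 7 of 8 higher at 6 hours, 4 higher at 24 hours and 5 lower on day 14. Over all genes 12.9% and 15.7% were called higher at 6 and 24 hours, and 13% lower on day 14. With arrays centred on their medians the day 14 direction of these markers turned, to 3 higher and 0 lower, and their median change was 0.36 in place of -0.54. The median of all genes was then 0.72 in place of -0.18, so these markers lay below it with either scaling. Their summed signal was 11690 to 12834, 30229 to 39379, 16528 to 17614 and 9394 to 10774 over the arrays of the 4 groups. Pan-leukocyte sums ranged from 42367 to 49082, 41013 to 47546, 41802 to 47271 and 33228 to 35807, with 2 of 10 markers higher and 5 lower at 6 hours. Of 10 granulocyte markers 8 fell at 6 hours. Monocyte and macrophage markers had 3 higher and 2 lower of 9 at 6 hours, T and NK cell markers 4 and 0 of 9, B-lineage markers 1 and 3 of 9, and stromal markers 4 and 0 of 8. At that time 12.9% of all genes were called higher and 14.5% lower. At background on all arrays of a group were 1 of the 9 T and NK cell markers in every group, 1 B-lineage marker at 6 and at 24 hours, 1 monocyte marker at 6 hours and 1 erythroid marker on day 14. The part that other cells play in the changes of the 8 genes was not tested.

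**Figure D4:**
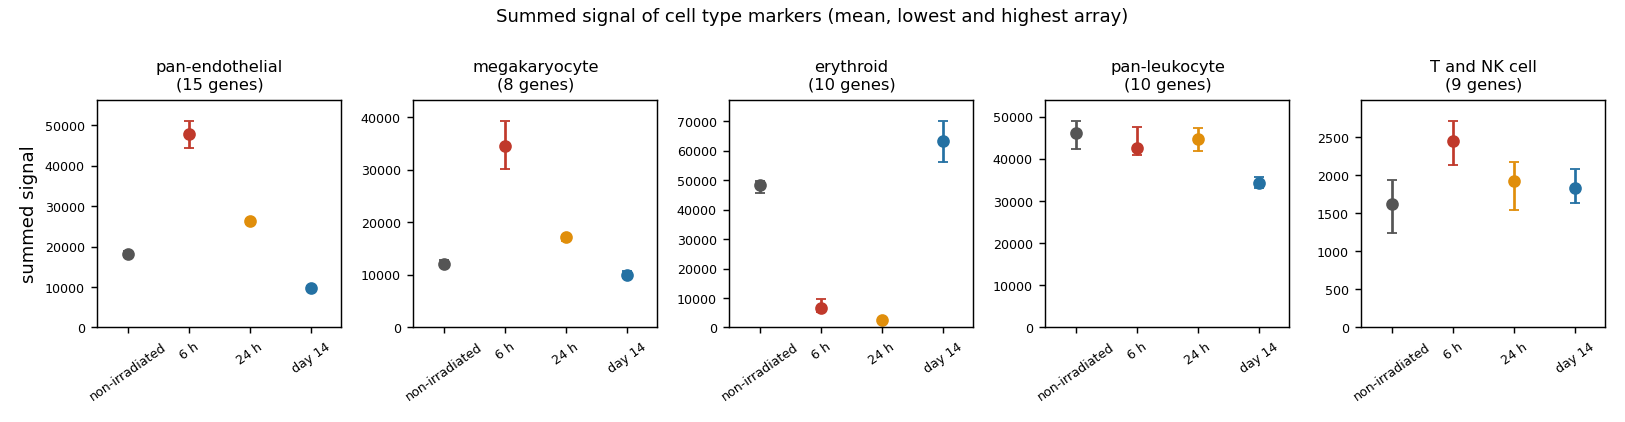
Summed signal of 5 marker lists by group, as the authors scaled it, with the mean of 5 arrays and bars from the lowest to the highest array. Pan-endothelial and megakaryocyte sums are highest at 6 hours and lowest on day 14, and the erythroid sum is lowest at 24 hours and highest on day 14. Centring turns the median day 14 change from -0.54 to 0.36 for megakaryocyte, from -0.80 to 0.10 for pan-endothelial and from -0.345 to 0.55 for pan-leukocyte markers. It also raises the median change of all genes on day 14 to 0.72.

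On the deposited scale the same course, high at 6 hours and low on day 14, was seen in pan-endothelial markers and in Fas, Tnfrsf10b and Pmaip1. The mean log2 signal of the 15 pan-endothelial markers was 9.90 ± 0.06 (SD, n = 5), 11.3 ± 0.08, 10.5 ± 0.04 and 9.14 ± 0.02 in the 4 groups. Each gene was therefore also read against that mean on its own array, a setting chosen after seeing the data. It shifts the median of all genes to -1.47 at 6 hours, -0.68 at 24 hours and 0.58 on day 14. Read so, Eda2r (3.66), Tnfrsf10b (1.32) and Pmaip1 (0.69) were higher at 6 hours. Fas (0.25) and Perp (-0.17) did not pass, and Aen (-0.33) and Pidd1 (-1.54) were lower. At 24 hours Eda2r (3.44) and Aen (0.41) were higher and Pidd1 (-1.98) was lower, while Tnfrsf10b (0.71), Pmaip1 (0.55) and Perp (0.70) did not pass. On day 14 Eda2r (1.62) and Aen (1.12) were higher, and Fas (-0.69) did not pass. Eda2r, Tnfrsf10b and Pmaip1 at 6 hours and Eda2r, Aen and Pidd1 at 24 hours were thus called in the same direction on both scales. Fas at 6 hours and on day 14, and Tnfrsf10b, Pmaip1 and Perp at 24 hours, were called on the first scale only, and Aen at 6 hours was called in opposite directions. On the second scale 9 of the 12 BCL2 family genes were called lower and 0 higher at 6 hours, at a median of -0.97, and 4 lower and 0 higher at 24 hours, at -0.33. The 37 other p53 targets gave 7 higher and 22 lower at 6 hours, at a median of -0.69, and 11 higher and 12 lower at 24 hours, at -0.10. At 6 hours most genes of either list were called on this scale, as were most of all genes. Both lists lay above the median of all genes at these times on either scale. Taking the same value from every gene of an array cannot change that distance.

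The genes with the most similar course were looked up by Pearson's r over the 20 arrays on the log2 scale, among 8918 genes above the median level. Arrays of a group share their condition, so r mainly reflects 4 group levels. Fas was nearest to Cdh5 (r = 0.960) and to Zeb2 (0.959), and Tnfrsf10b to the endothelial marker Eng (0.954) and to Tm4sf1 (0.9502). Eda2r was nearest to Crim1 (0.955) and Col11a1 (0.946), Pmaip1 to Rap1b (0.964) and Ahdc1 (0.963), and Aen to Car3 (0.953) and Fkbp9 (0.949). The genes nearest to Bbc3 (Tet3, 0.858), Perp (Foxo1, 0.824) and Pidd1 (Pan2, 0.845) were less alike. Among the 8 genes themselves r ran from -0.537 for Aen and Pidd1 to the 0.933 of Tnfrsf10b and Pmaip1.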

How the data were processed

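The table deposited by the authors holds linear intensities of probe sets, with a column for each array. A trimmed mean (2% off each end) of 500 on every array shows the scaling they applied. The RNeasy micro kit of Qiagen served for extraction and the NuGEN Ovation system for amplification, per the labels. Affymetrix Expression Console and the Transcriptome Analysis Console are the tools in the submitters' processing notes. Summarization, background correction and filters are not given in the sources used here. Precision is limited by the number of arrays.

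Of 45101 probe sets the platform's annotation gave 34945 a single gene symbol, 932 several and 9160 none, and 64 were controls. Values were log2 transformed after adding 1. Where a gene had several probe sets the brightest over the 20 arrays was used, and the other 4 probe sets of the 8 genes served as a check, fitted over all probe sets. The 4 groups were fitted in 1 model with limma 3.58.1 in R 4.3.3 (lmFit, eBayes with an intensity trend), two-sided, with Benjamini-Hochberg adjustment over all genes. Plots were made in matplotlib 3.10.9 (Python 3.11.15). The model was tested on simulated data.

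The 8 genes, the lists and the tests were chosen with earlier results of these data known. Named were the 8 genes, their 3 ligands, Cdkn1a and Mdm2, from each other pathway list up to 3 called genes with the largest change per time, and the 2 genes most alike in course, leaving out predicted symbols. From the marker lists Cdh5, Pecam1, Ptprc, Klf1 and Epor served as examples. The background level, the rule for p53 matches (read off the Bbc3 window) and the scale against pan-endothelial markers were chosen after seeing the data. Alternatives were quantile normalization, centring arrays on their medians, leaving out genes below the 40th percentile, averaging a gene's probe sets, leaving out cross-hybridizing probe sets, adding 16, no trend, array weights, only the 2 groups compared, the replicate number as a block, and leaving out each array.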

Additional observations from a re-analysis of the deposited data

Results flagged for a closer look

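In 32 sets of 5 arrays (8 genes in 4 groups), 1 array stood apart from its group: Aen in 6-hour replicate 4 read 1340, and the next lowest 6-hour array read 2220. Chance gives about 1 such array in 20 sets. The spread between 6-hour arrays was the widest of the 4 groups over all genes.

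Differences between the irradiated groups were tested directly, and those past the threshold are log2 differences of the later time against the earlier. From 6 to 24 hours these were Tnfrsf10b (-1.45), Pmaip1 (-0.97) and Pidd1 (-1.27). From 24 hours to day 14 they were Eda2r (-3.20), Fas (-2.29), Tnfrsf10b (-2.13), Pmaip1 (-1.60), Aen (-0.66), Perp (-1.59) and Pidd1 (1.12). From 6 hours to day 14 they were Eda2r (-4.25), Fas (-3.14), Tnfrsf10b (-3.58), Bbc3 (-1.88), Pmaip1 (-2.57), Aen (-0.75) and Perp (-1.56). The pan-endothelial markers fell over the same interval from 6 hours to day 14, and the part this plays was not tested further.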

How the results depend on the processing

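Under the alternatives that keep all arrays, 429 of 468 changes of the 8 genes kept their side of the threshold. Of the rest 12 lost and 26 gained a call, and 1 reversed: Pidd1 on day 14 against non-irradiated samples read 0.65 with centred arrays. A reversal was counted only where the main or the alternative fit called the change. The 429 thus include uncalled changes that switched direction, such as Tnfrsf10b on day 14 with quantile normalization (0.14). Leaving out 1 array reversed no change by this rule and left 935 of 960 on the same side of the threshold. Of the 8 genes 1 was called on day 14, against 3 with centred arrays, 3 with array weights, and 2 each with dim genes left out, the mean of probe sets, no intensity trend or only the 2 groups compared. Quantile normalization also called 1, but this was Eda2r, higher at 1.90, in place of Fas. From 6 hours to day 14 centring gave 4 in place of 7. With 1 array left out the counts ran from 5 to 6 (6 hours), 5 to 7 (24 hours), 1 to 2 (day 14), 3 to 4 (24 against 6 hours), and stayed at 7 for day 14 against 24 hours and against 6 hours. Over all genes the day 14 count of 4082 became 8671 with centred arrays, 6242 with array weights and 6147 with only the 2 groups compared. Centring moved the median of all genes on day 14 from -0.18 to 0.72 and split its calls into 8210 higher and 461 lower, against 1723 and 2359. At 6 hours it gave 3531 and 1617 against 2343 and 2640, and at 24 hours 4950 and 1139 against 2861 and 2513. The causes were not tested.

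Read against the pan-endothelial mean, 7 of 48 changes reversed by the same rule. They were Aen at 6 hours (-0.33), at 24 against 6 hours (0.74) and on day 14 against 24 hours (0.71). On day 14 against 6 hours they were Bbc3 (0.32), Aen (1.45), Perp (0.64) and Pidd1 (2.06). Uncalled switches of direction are not among them, such as Perp at 6 hours, from 1.28 to -0.17. This scale also shifted the median of all genes, to 0.7855 at 24 against 6 hours. The shifted median was 1.103 on day 14 against 24 hours and 1.936 on day 14 against 6 hours. Of the reversed changes between times, only that of Pidd1 lay above the median of all genes. Bbc3 and Perp did not pass on this scale. At 6 hours Aen lay above the shifted median of -1.47. The counts called were 3 at 24 hours, 2 on day 14 and 1 at 24 against 6 hours. Over all genes 13925, 8125 and 7898 were called at the 3 times and 9380, 10439 and 14417 between times. Fits with the pan-endothelial or erythroid mean as a covariate say little, since 99.7% and 98.5% of these means' variance lay between groups. Dim signal limits Bbc3, Fasl and the non-irradiated level of Eda2r.

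Replicate numbers did not pair the arrays: same-numbered arrays' deviations correlated between -0.067 and 0.049, and 4 of 20 arrays correlated best with their own number. With the replicate number as a block the counts called were 6, 6 and 1 against non-irradiated samples and 3, 7 and 7 between times. The only call it changed was Perp at 6 hours, gained at adjusted p = 0.0487 (0.00655 to 0.754 over all alternatives).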
